A study of Mus musculus with 6 samples.

Results

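ADAM and ADAMTS genes were followed in synovial fibroblasts exposed to compound 33 or to its vehicle. The genes were taken by name alone, as all symbols of the forms Adam, Adamts and Adamtsl followed by a number, with a closing letter allowed after Adam. This gave 57 of the 21033 genes in the count table, made up of 33 ADAM, 19 ADAMTS and 5 ADAMTSL genes. Of the 57, 35 had at least 1 read, namely 16 ADAM, 15 ADAMTS and 4 ADAMTSL genes, and 23 passed the low-count filter and could be tested. The cells were primary synovial fibroblasts from ankle joints of hTNFtg mice, cultured for 3 passages. Fibroblasts in both groups therefore carried the human TNF transgene, which causes chronic arthritis in these mice, and there was no group without it. One group received 10 µM compound 33 for 48 h and the other DMSO, with 3 libraries each. Transgene promoter, animal age and number, and the origin of the replicates: not given in the sources used here. Replicates may thus be technical, and each p reflects the variation among these 6 libraries and nothing wider.

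ADAM proteins are membrane-anchored metalloproteinases, and the active ones cut the outer parts of other membrane proteins from the cell surface, releasing cytokines, growth factors and receptor ectodomains. ADAMTS proteins are secreted relatives that carry thrombospondin repeats and act in the matrix, where individual members cleave the proteoglycans aggrecan and versican, procollagens, COMP or fibrillin. ADAMTSL proteins resemble the ancillary part of ADAMTS enzymes but have no protease domain. In the joint, ADAM17 is known as the enzyme that releases TNF, and ADAMTS4 and ADAMTS5 as the aggrecanases of cartilage.

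The zinc-binding site separates the proteases from the relatives that cannot cut, so it was looked up in the coding sequence of each gene in the GENCODE M21 annotation of mm10. The core of this site is a codon for histidine and one for glutamate, any pair of codons, and a second histidine codon, read in frame on the coding strand. The full metzincin motif goes on with any pair of codons, a glycine codon, any pair of codons and a last histidine codon. All 19 ADAMTS genes, 20 of 33 ADAM genes and 0 of 5 ADAMTSL genes held the core, against 3.27% of all 21492 protein-coding genes searched. Of the 23 tested genes, 17 held it. Those without it were the 4 ADAMTSL genes and Adam22 and Adam23, adhesion proteins of the nervous system that are known not to be active proteases. The full motif was found in 13 ADAMTS genes, 20 ADAM genes and 0.321% of all protein-coding genes. Among the 7 hyalectanases, the ADAMTS enzymes that cut aggrecan and versican, only Adamts5 held the full motif, and the other 6 had another codon in place of the glycine codon. The first 10 codons are shown for the most abundant sheddase, for Adam12, for the 3 tested hyalectanases, and for Adamts2 and Adamts12, with the fixed codons of the core and the position of the glycine codon in capitals.
Adam17: CATGAAttgggaCATaattttGGAgcagaa
Adam12: CATGAGctgggcCACaacttcGGGatgaac
Adamts5: CATGAAattgggCATctacttGGCctttct
Adamts1: CATGAAttgggcCATgtgtttAACatgccg
Adamts4: CATGAActgggcCATgtcttcAACatgctc
Adamts2: CACGAGacgggcCATgtgctgGGCatggag
Adamts12: CATGAActtggtCACagcttcGGCatccag
In the ADAM genes with the core, these 30 bases lay within 1 exon in all 20, as at chr12:21336735-21336764 on the minus strand for Adam17 and chr7:133961161-133961190 on the minus strand for Adam12. In all 19 ADAMTS genes an intron lay within them, so that the site of Adamts5 spans chr16:85878018-85887826 on the minus strand and that of Adamts1 spans chr16:85799194-85799545 on the minus strand. The sites of Adamts4, Adamts2 and Adamts12 span chr1:171253210-171253912, chr11:50775403-50776131 and chr15:11241529-11255561, all on the plus strand.

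The DMSO libraries held 1913730 to 2897207 reads and the compound 33 libraries 1594052 to 2384850. ADAM, ADAMTS and ADAMTSL genes together took 0.185% to 0.212% of the reads with DMSO and 0.190% to 0.220% with compound 33. Levels are given as CPM, the reads of a gene per 1e+06 reads of the library after scaling. Each read comes from near the 3′ end of a transcript, so a level follows the number of transcripts and is not divided by gene length. One read was worth 0.348 to 0.611 CPM. All 7 listed fibroblast markers were present, with summed levels of 9564 to 11712 CPM with DMSO and 8363 to 10711 CPM with compound 33, most of it from Pdpn, Col1a1 and Vim. The fibroblast marker Thy1 was lower in each compound 33 library than in any DMSO library, at 851, 871 and 574 CPM with DMSO and 427, 525 and 507 CPM with compound 33 (log2 fold change -0.65, SE 0.23, adjusted p = 0.605 in edgeR). This is the direction of Adam12, Adamts2 and Adamts12 described later. The other fibroblast markers had overlapping groups, with log2 fold changes of 0.22 for Vim and 0.15 for Prg4. Those of Pdpn, Pdgfra, Cdh11 and Col1a1 ran from -0.38 to -0.19. The part of these markers in the values of the 3 proteases was not tested. The 6 macrophage markers, all with reads, summed to 41.5 to 116 and 37.7 to 84.4 CPM, of which most was Lyz2. The endothelial, osteoblast, mural and muscle, and epithelial marker lists each summed to at most 5.22 CPM in any library, with 2 of 5 endothelial, 2 of 4 osteoblast and 2 of 3 epithelial markers at 0 reads. The 5 chondrocyte markers summed to 59.9 to 148 CPM with DMSO and 99.6 to 119 CPM with compound 33, nearly all from Sox9, while aggrecan (Acan) and Matn1 had 0 reads. In bulk RNA, a change in the share of cells of a type and a change in the RNA each cell makes cannot be told apart.

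Compound 33 changed no ADAM, ADAMTS or ADAMTSL gene at an adjusted p under 0.05. In edgeR's quasi-likelihood test 0 of the 23 tested genes passed, where 0.0296% of all 10124 tested genes did (0.00988% higher and 0.0198% lower), and the lowest adjusted p was 0.557. DESeq2 and limma-voom also passed 0, and 0 of the 24 with an adjusted p passed in the authors' deposited table, where the lowest was 0.590. Before adjustment 3 genes lay under 0.05 in edgeR, all with lower levels under compound 33, namely Adamts12, Adam12 and Adamts2, against 6.87% of all tested genes in either direction, 3.64% upward and 3.23% downward. The same 3 had groups that did not overlap, against 13.4% of all tested genes in either direction, 6.64% upward and 6.73% downward. These are 13.0% of the 23, close to the 13.4% of all tested genes without overlap in either direction. This 13.0% is above the 6.73% without overlap downward and the 6.87% under an unadjusted 0.05 in either direction. It rests on 3 genes, and the differences between these shares were not tested. Of the 23 estimates 13 were positive and 10 negative, with a median log2 fold change of 0.12, where the median over all tested genes was -0.01. The sign of this median was not stable: it was -0.077 without DMSO replicate 1, -0.071 without compound 33 replicate 2 and -0.0082 over the 15 genes left at a minimum count of 30. The 95% interval lay within a doubling and a halving for 8 of the 23 genes and reached beyond one of them for 15.

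**Figure D1:**
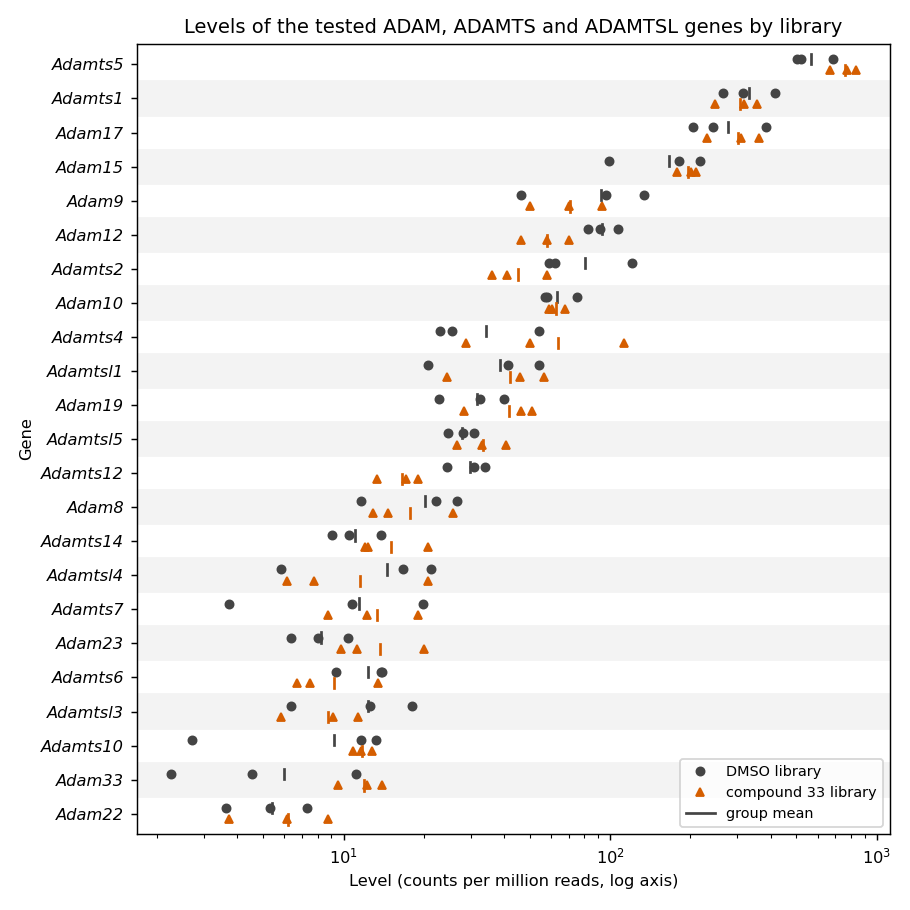
Levels of the 23 tested genes in CPM on a log axis, with circles for the 3 DMSO libraries, triangles for the 3 compound 33 libraries and short vertical lines for group means. Adamts5 is highest in all 6 libraries, and the symbols of the 2 groups are fully apart for Adam12, Adamts2 and Adamts12 alone.

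**Figure D2:**
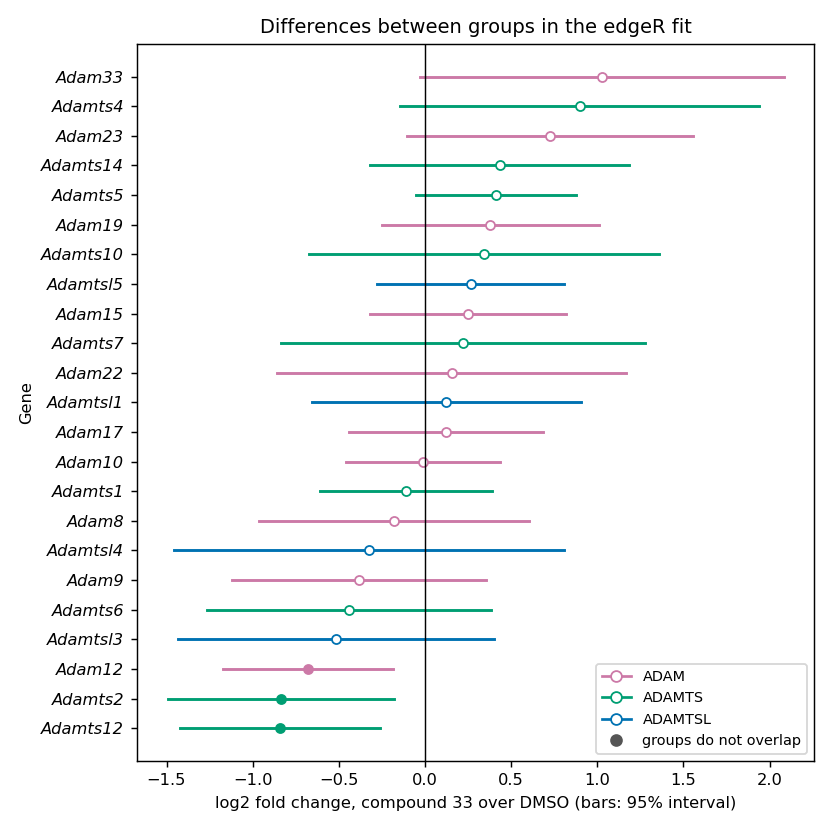
Log2 fold change of each tested gene, compound 33 over DMSO, with its 95% interval from the edgeR fit. Filled points mark genes whose groups do not overlap, Adamts12, Adamts2 and Adam12, whose intervals also exclude 0; the intervals of the other 20 genes include it.

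Among the sheddases, Adam17 was the most abundant. It stood at 383, 204 and 244 CPM in DMSO replicates 1, 2 and 3 and at 232, 311 and 361 CPM in compound 33 replicates 1, 2 and 3. The highest value was that of a DMSO library and the groups overlapped over most of their range, with a log2 fold change of 0.12 (SE 0.26, 95% interval -0.44 to 0.69, adjusted p = 0.958). The Adam17 gene (chr12:21323509-21373632, minus strand) has exons that overlap Iah1, which is read from the other strand, and whether the authors counted by strand is unknown here, so reads of the pair may be shared. Adam10, the other main sheddase of most cells and the one that acts on Notch receptors and cadherins, stood at 56.7, 74.9 and 57.8 CPM with DMSO and 60.5, 68.0 and 59.2 CPM with compound 33. These were among the most even values of the family, with a log2 fold change of -0.01 and an interval from -0.46 to 0.44. Adam17 had 2.73 to 6.75 times as many reads as Adam10 in the DMSO libraries and 3.83 to 6.10 times with compound 33.

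Adam12, a sheddase of mesenchymal cells that is known to be induced by TGF-β, was lower in each compound 33 library than in any DMSO library. Its level was 107, 91.6 and 82.5 CPM with DMSO and 58.1, 70.1 and 46.3 CPM with compound 33. The means were 93.6 ± 12.2 and 58.2 ± 11.9 CPM (SD, n = 3 per group), a log2 fold change of -0.68 (SE 0.23, 95% interval -1.17 to -0.19). In edgeR its p was 0.0108 before adjustment and 0.586 after it, so the difference did not pass. For Adam12 the authors' deposited table lists a log2 fold change of -0.68 and 0.590 as the adjusted p. As a share of all reads of the 9 sheddase genes, Adam12 made up 11.4% to 13.6% with DMSO and 5.86% to 8.84% with compound 33. The Adam12 gene (chr7:133883199-134232146, minus strand) has no exon that overlaps another annotated gene.

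The remaining sheddases showed no difference beyond their spread. Adam15, whose protein also binds integrins, stood at 217, 98.8 and 182 CPM with DMSO and at 179, 210 and 201 CPM with compound 33. DMSO replicate 2 was the low library, and the other 5 lay closer together; exons of this gene overlap 4731419I09Rik on the other strand. Adam9, a widely expressed sheddase, varied most among the abundant ones, at 46.1, 134 and 96.8 CPM with DMSO and 92.9, 70.1 and 49.9 CPM with compound 33. Its DMSO libraries alone spanned the whole range of the treated ones (log2 fold change -0.38, adjusted p = 0.892).

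Adam19, a relative of Adam12 known for its part in heart development, stood at 22.8, 40.1 and 32.4 CPM with DMSO and 50.7, 28.2 and 46.3 CPM with compound 33. Adam8, a sheddase best known from leukocytes and also made by activated fibroblasts, stood at 11.7, 26.6 and 22.3 CPM with DMSO and 14.7, 25.7 and 12.9 CPM with compound 33. In both genes the groups overlapped, with log2 fold changes of 0.38 (SE 0.29) and -0.18 (SE 0.36). Adam33, a mesenchymal ADAM known from studies of asthma, had the largest positive estimate with all 6 libraries, 1.03 (SE 0.49, 95% interval -0.03 to 2.08, adjusted p = 0.720). Its reads were few, 21, 5 and 13 with DMSO and 20, 23 and 27 with compound 33, and DMSO replicate 1 at 11.1 CPM lay among the treated libraries at 12.2, 9.54 and 13.9 CPM. Dropping DMSO replicate 2 gave 0.66 for Adam33 and dropping DMSO replicate 1 gave 1.76. With DMSO replicate 3 dropped it was 0.85, below the 1.40 of Adamts4. Adam28, the ninth sheddase listed, had 0 reads, where 3 reads, the limit that a count of 0 allows, correspond to 1.04 to 1.83 CPM in these libraries.

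Adam22 and Adam23, both without the zinc-binding core, were present at low levels. Adam23 stood at 6.36, 10.4 and 8.01 CPM with DMSO and 9.78, 11.2 and 20.1 CPM with compound 33, where replicate 3 was the high library (log2 fold change 0.73, SE 0.39, adjusted p = 0.771). Adam22 stood between 3.61 and 7.31 CPM with DMSO and between 3.73 and 8.75 CPM with compound 33. Adam11, also of this kind, had 0, 4 and 3 reads with DMSO and 0, 1 and 0 with compound 33, too few to compare.

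ADAM genes known from testis and other reproductive tissue were nearly silent. Of 21 such genes 16 had 0 reads in all libraries and 0 passed the low-count filter. Adam1a and Adam3 had 10 reads each in all, Adam5 had 5, and Adam32 and Adam34 had 1 each. The exons of Adam1a overlap Mapkapk5 on the same strand and its copy Adam1b lies 15.1 kb away, so the reads given to Adam1a are uncertain. Chromosome 8 carries 14 of the 57 genes, more than any other chromosome, and 5 of these had a read. The sheddase Adam9, with 1079 reads in all, sits there at the end of a row of such genes on the same strand. It lies 0.8 kb from Adam32, which is followed in the row by Adam5, Adam3 and Adam18 with 5, 10 and 0 reads.

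The hyalectanases were dominated by Adamts5 and Adamts1. Adamts5, the aggrecanase that mouse cartilage loss depends on, was the most abundant gene of the whole family in each library, at 503, 521 and 683 CPM with DMSO and 667, 773 and 834 CPM with compound 33. DMSO replicate 3 lay above compound 33 replicate 1, so the groups overlapped by that pair alone. The means were 569 ± 99.4 and 758 ± 84.7 CPM, a log2 fold change of 0.41 (SE 0.22, 95% interval -0.05 to 0.88, adjusted p = 0.769). Adamts1, an enzyme of versican turnover in ovary and vessels, stood at 264, 315 and 415 CPM with DMSO and 248, 318 and 357 CPM with compound 33. Each group held both low and high values for it, and the estimate on the log2 scale was -0.11 (SE 0.23, adjusted p = 0.958).

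Adamts5 and Adamts1 are neighbours on the minus strand of chromosome 16, 53.1 kb apart, with no protein-coding gene between them. Adamts1 occupies chr16:85793827-85803113 and Adamts5 chr16:85856173-85901828, and the exons of both overlap no other annotated gene. The reads of Adamts5 outnumbered those of Adamts1 by 1.91, 1.65 and 1.65 times in the DMSO libraries and by 2.69, 2.43 and 2.34 times in the compound 33 libraries. All compound 33 libraries lay above all DMSO libraries in this ratio, which does not depend on the scaling of the libraries. The means were 1.73 ± 0.148 and 2.49 ± 0.180 (SD, n = 3 per group), and a two-sided exact permutation test gave p = 0.10, the smallest value that 3 libraries against 3 allow. The ratio was one of 17 ratios and shares computed after the levels had been seen, of which 6 had groups that did not overlap, and its adjusted p over the 17 was 0.283 in the exact permutation test. Within the reads of the 7 hyalectanases, Adamts1 made up 32.9% to 36.1% with DMSO and 26.0% to 27.7% with compound 33, and Adamts5 59.0% to 62.8% and 63.7% to 69.9%. These shares rest on the same Adamts5 and Adamts1 reads as the ratio, so they are not separate results. Several of the 17 quantities share reads in this way.

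**Figure D3:**
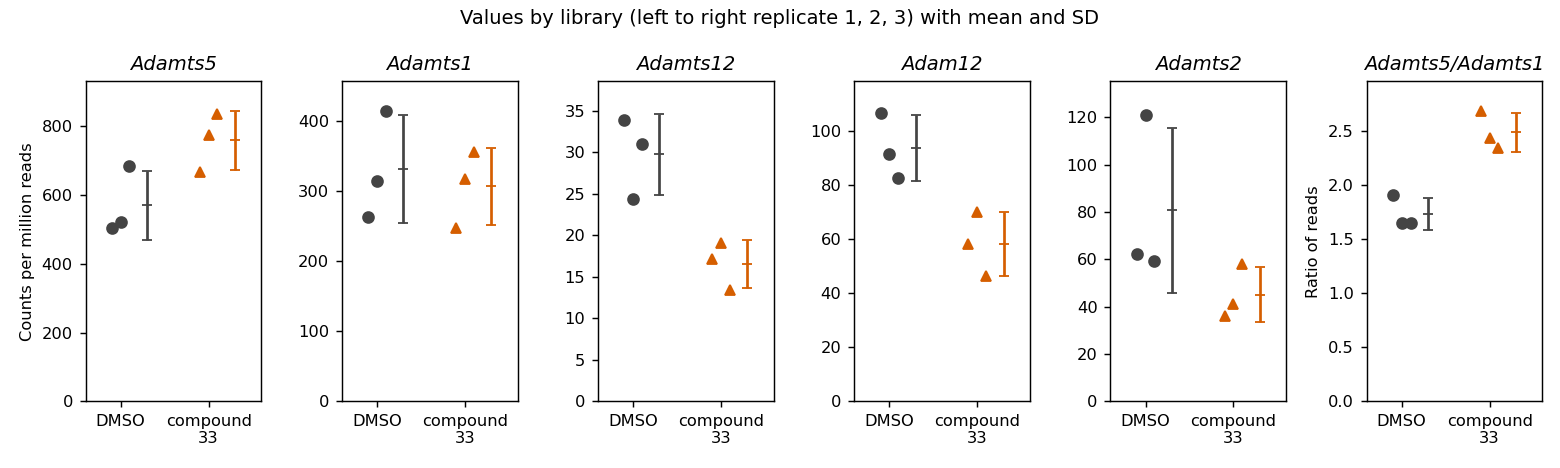
Values in each library, replicates 1 to 3 from left to right, with the group mean and SD beside them: CPM for Adamts5, Adamts1, Adamts12, Adam12 and Adamts2, and the ratio of Adamts5 to Adamts1 reads in the last panel, each axis starting at 0. The groups overlap for Adamts5 and Adamts1 and are apart for the other 3 genes and for the ratio.

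Adamts4, the other cartilage aggrecanase and one induced by inflammatory cytokines, was far below Adamts5. It stood at 25.5, 23.0 and 54.0 CPM with DMSO and 28.7, 50.2 and 113 CPM with compound 33. Replicate 3 was the highest library in each group, and compound 33 replicate 1 lay near the low DMSO values. The log2 fold change of 0.90 had a wide interval, from -0.14 to 1.94 (SE 0.47, adjusted p = 0.777), and it was 0.21 without compound 33 replicate 3 and 1.40 without DMSO replicate 3. Adamts5 and Adamts1 were also highest in replicate 3 of each group, so this order was not particular to Adamts4. The macrophage marker Lyz2 was likewise highest in replicate 3 of each group. It stood at 104 CPM in DMSO replicate 3 and 72.1 CPM in compound 33 replicate 3. The other libraries held 34.4 to 45.9 CPM. The macrophage markers Csf1r and C1qa were also highest in replicate 3 of each group, at 5.15 CPM or less. With compound 33, Cd68 and Adgre1 were instead highest in replicate 1 and Ptprc in replicate 2, at 3.67 CPM or less. The part of these markers in the Adamts4 values was not tested. The Adamts4 gene occupies chr1:171250421-171260637 (plus strand).

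The other 4 hyalectanases were under the low-count filter. Adamts9, which acts on versican, had 10, 29 and 7 reads with DMSO and 6, 8 and 5 with compound 33, so that a single library, DMSO replicate 2, held 29 of its 65 reads. The neighbours Adamts15 and Adamts8 on chromosome 9 had 21 and 14 reads in all, and Adamts20 had 2. Aggrecan itself had 0 reads, as given above, while versican (Vcan), the other large proteoglycan these enzymes cut, stood at 228, 221 and 186 CPM with DMSO and 117, 159 and 144 CPM with compound 33. Versican was lower in each treated library, with a log2 fold change of -0.60 (SE 0.21) that did not pass (adjusted p = 0.606).

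Adamts2, the main enzyme that removes the amino-terminal propeptide of fibrillar procollagens, was lower in each compound 33 library than in any DMSO library, by a narrow margin. Its level was 62.0, 121 and 59.2 CPM with DMSO and 36.1, 41.0 and 58.2 CPM with compound 33. DMSO replicate 2 was about 2-fold above the other DMSO libraries, and compound 33 replicate 3 lay just below DMSO replicate 3. The log2 fold change was -0.84 (SE 0.30, 95% interval -1.49 to -0.18, adjusted p = 0.649), and it was -0.42 without DMSO replicate 2. The Adamts2 gene occupies chr11:50602084-50807573 (plus strand). Its relative Adamts14, with a site that matches that of Adamts2 at 27 of the 30 bases, did not share this direction. Adamts14 stood at 13.8, 9.02 and 10.4 CPM with DMSO and 20.8, 12.0 and 12.4 CPM with compound 33, with overlapping groups and a log2 fold change of 0.43 (SE 0.35). Adamts3, the other procollagen enzyme, had 4 reads in all, 2 in each replicate 3.

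Adamts12, which like Adamts7 cleaves the cartilage protein COMP, had the lowest p of the family in the main edgeR fit. It stood at 33.9, 24.4 and 31.0 CPM with DMSO and 17.1, 19.1 and 13.4 CPM with compound 33. The means were 29.8 ± 4.90 and 16.5 ± 2.89 CPM (SD, n = 3 per group) and the groups did not overlap. The log2 fold change was -0.84 (SE 0.27, 95% interval -1.42 to -0.26). In edgeR's test across all genes its p was 0.00787 unadjusted and 0.557 adjusted, so it did not pass. The authors' deposited DESeq2 comparison gives Adamts12 a p of 0.0174 unadjusted and 0.691 adjusted. Adam12 and Adamts2 have lower p values there, 0.0106 and 0.0119 unadjusted in DESeq2. The Adamts12 estimate rested on 64, 54 and 89 reads with DMSO and 28, 46 and 26 with compound 33. The Adamts12 gene occupies chr15:11064790-11349231 (plus strand). Adamts7 had overlapping groups, and its difference from Adamts12 was not tested. Its reads were 7, 44 and 31 with DMSO and 20, 46 and 17 with compound 33, a log2 fold change of 0.22 with an interval from -0.84 to 1.28. Comp itself stood at 19.4 ± 4.97 and 28.6 ± 22.2 CPM.

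Adamts6 and Adamts10, which act on fibrillin microfibrils, were low and overlapped between groups. Adamts6 stood at 13.8, 14.0 and 9.40 CPM with DMSO and 13.4, 7.46 and 6.69 CPM with compound 33. Adamts10 stood at 11.7, 2.71 and 13.2 CPM with DMSO and at 12.8, 11.6 and 10.8 CPM with compound 33, where DMSO replicate 2 with 6 reads was the low library. Of the 5 remaining ADAMTS genes, Adamts16 had 0, 3 and 6 reads with DMSO and 0, 0 and 1 with compound 33, and Adamts13, Adamts17, Adamts18 and Adamts19 had 0. Adamts13 is the enzyme that trims von Willebrand factor in blood and comes mainly from liver.

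Of the ADAMTSL genes, Adamtsl1 was the most abundant, at 20.7, 41.5 and 54.0 CPM with DMSO and 24.5, 56.4 and 45.8 CPM with compound 33. Replicate 1 was the low library in each group. Adamtsl5 was the steadiest, at 30.8, 28.0 and 24.7 CPM with DMSO and 33.0, 26.5 and 40.7 CPM with compound 33. Adamtsl4, which binds fibrillin and is known from displaced lenses in its absence, stood at 5.83, 21.2 and 16.7 CPM with DMSO and 6.11, 20.7 and 7.72 CPM with compound 33, so it differed more within each group than between them. Adamtsl3 stood at 6.36, 18.0 and 12.5 CPM with DMSO and 9.17, 5.80 and 11.3 CPM with compound 33. None of the 4 differed beyond the spread between libraries, with log2 fold changes from -0.52 for Adamtsl3 to 0.26 for Adamtsl5. Adamtsl2 had 0 reads.

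Genes that mature, escort or inhibit ADAM proteases were also read from the fit. Of 18 such genes 14 were tested and 0 passed in edgeR, with a median log2 fold change of -0.07. Under an unadjusted 0.05 lay 2 higher and 1 lower, where 3.64% of all tested genes were higher and 3.23% lower. Timp2, an inhibitor of metalloproteinases, stood at 3018, 3014 and 3433 CPM with DMSO and 7707, 5955 and 5053 CPM with compound 33. Its groups did not overlap, and its log2 fold change was 0.98 (SE 0.23, adjusted p = 0.368 in edgeR), while the authors' deposited table gives it 0.00655 as adjusted p, and in a DESeq2 fit of the counts it was the 1 gene of this list that passed. Timp1, another inhibitor of metalloproteinases, had overlapping groups at 1964 ± 264 and 1460 ± 276 CPM (log2 fold change -0.43, SE 0.23, adjusted p = 0.771 in edgeR). Timp3, the main natural inhibitor of ADAM17 and of the aggrecanases, stood at 647, 730.3 and 989 CPM with DMSO and 472, 796 and 599 CPM with compound 33, with overlapping groups. Pcsk5 and Pcsk6 are proprotein convertases, the class of enzyme that removes the inhibitory prodomain, and they differed in opposite directions. Pcsk5 stood at 9.54, 14.4 and 6.96 CPM with DMSO and 5.50, 0.829 and 2.06 CPM with compound 33, and Pcsk6 at 13.3, 11.3 and 16.4 against 15.9, 24.9 and 40.7 CPM. Their log2 fold changes were -1.97 (SE 0.58, adjusted p = 0.500) and 0.99 (SE 0.35, adjusted p = 0.611). Furin, the most abundant convertase, stood at 249.8 ± 105 and 239 ± 61.3 CPM, and the ADAM17 escorts Rhbdf1 and Frmd8 at 53.1 ± 11.1 and 46.9 ± 6.51 CPM and at 103 ± 11.6 and 123 ± 7.18 CPM.

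**Figure D4:**
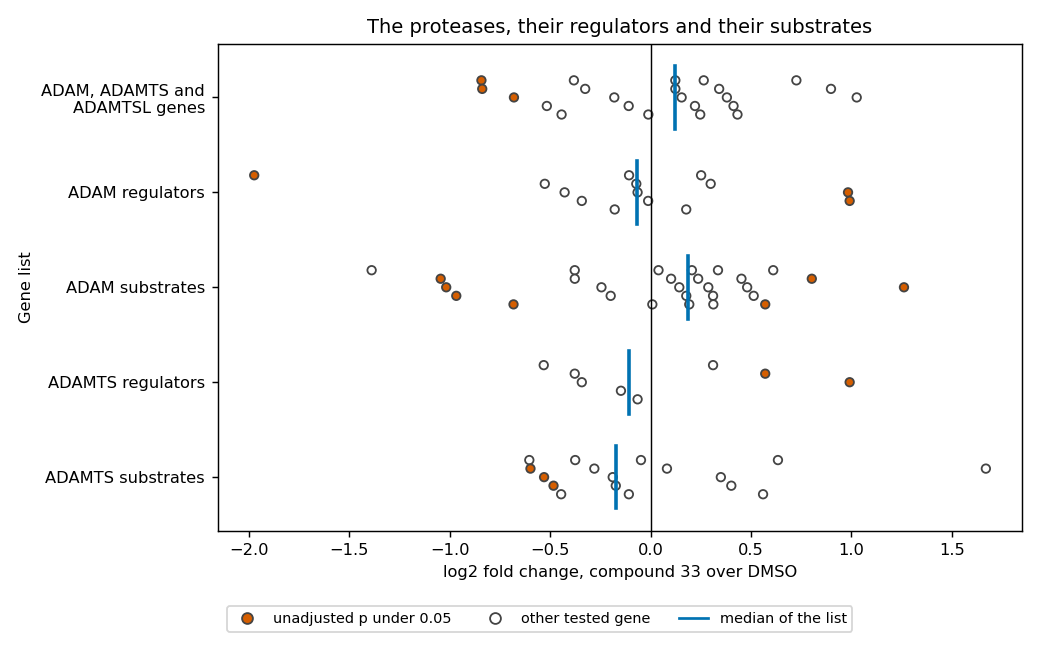
Log2 fold change, compound 33 over DMSO, of each tested gene in the protease family and in the lists of its regulators and substrates, with a vertical line at each list's median and filled points for an unadjusted p under 0.05. The medians lie between -0.17 and 0.19, and genes of each list fall on both sides of 0.

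Proteins that ADAM proteases are known to cut were read the same way. Of 38 listed substrates 28 were tested and 0 passed in edgeR, DESeq2 or limma-voom, with a median log2 fold change of 0.19. Under an unadjusted 0.05 lay 3 higher and 4 lower, against 6.87% of all tested genes in either direction (3.64% higher, 3.23% lower). Higher were the adhesion molecule Vcam1 (451 ± 100.4 and 787 ± 125 CPM), the endocytic receptor Lrp1 (154 ± 21.4 and 228 ± 29.1 CPM) and the growth factor receptor Met (4.70 ± 0.771 and 11.2 ± 3.48 CPM), with log2 fold changes of 0.80 (SE 0.23), 0.57 (SE 0.21) and 1.26 (SE 0.41) and adjusted p values of 0.486, 0.649 and 0.563. Lower were the EGF receptor ligand Hbegf (23.0 ± 2.72 and 11.4 ± 4.18 CPM), the adhesion molecule Alcam (17.1 ± 1.59 and 8.77 ± 2.27 CPM) and the growth factor binding proteins Igfbp3 and Igfbp5. Their adjusted p values were 0.558, 0.599, 0.690 and 0.686. Tnfrsf1a, a TNF receptor that ADAM17 sheds, stood at 213 ± 58.0 and 219 ± 36.5 CPM (log2 fold change 0.04). Mouse Tnf had 3 reads in all libraries together, and transcripts of the human gene were not analysed here.

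Matrix proteins cut by ADAMTS enzymes had 17 tested members of 24, with 0 passing in edgeR, DESeq2 or limma-voom and a median log2 fold change of -0.17. Under an unadjusted 0.05, where 3.23% of all tested genes were lower and 3.64% higher, lay 3 of the 17, Vcan, as given above, and the small proteoglycans Dcn (663 ± 141 and 459 ± 110 CPM) and Fmod (151 ± 16.0 and 108 ± 14.4 CPM), all with lower levels under compound 33 and adjusted p values of 0.720 for Dcn and 0.714 for Fmod. Fibrillar procollagen genes overlapped between groups. Col1a1 stood at 3151 ± 501 and 2766 ± 349 CPM and Col1a2 at 2217 ± 430 and 2145 ± 213 CPM. Col3a1 stood at 1919 ± 1063 and 1410 ± 404 CPM and Col5a1 at 739 ± 109 and 609 ± 116 CPM. Their log2 fold changes were -0.19, -0.05, -0.44 (SE 0.40) and -0.28. For Col3a1, DMSO replicate 1 was the low library, at 694 CPM. DMSO replicates 2 and 3, at 2596 and 2467 CPM, lay above each compound 33 library. Of 9 genes that modify, clear or inhibit ADAMTS enzymes, 8 were tested and 0 passed, with 2, Lrp1 and Pcsk6, higher under an unadjusted 0.05, against the same 3.64% of all tested genes. The lists share 6 genes, among them Lrp1, Pcsk6, Furin and Timp3.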

How the data were processed

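Per the submitters' processing notes, the tools were HISAT2 2.2.1, FastQC 0.11.9, DESeq2 (no version) and featureCounts 2.0.3, on mm10, with annotation and strandedness not given in the sources used here. Per the labels' protocols, RNA with an integrity number above 7 was made into QuantSeq 3′ libraries and sequenced on an Ion Proton. The authors deposited raw read counts, whole numbers by gene symbol, for 6 libraries. A second table that the authors deposited compares the groups, with a mean normalized count (a signal over all libraries), a log2 fold change and its error, a Wald score, a p-value and an adjusted p-value.

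Counts were fitted in R 4.3.3 with edgeR 4.0.16: filterByExpr with a minimum count of 10 (10124 genes), TMM scaling, and the robust quasi-likelihood F test on group, two-sided, Benjamini-Hochberg adjusted over all genes tested, threshold 0.05. Standard errors are the unshrunk log2 fold change over the square root of F. limma 3.58.1 (voom) and DESeq2 1.42.0 were alternatives, with other scalings and filters, no robust estimation, a replicate block and each library left out. The fit was tested on simulated data. Ratios used exact permutation tests in scipy 1.17.1. Replicate libraries differed by more than counting noise (chi-square per degree of freedom 4.34 to 17.6). Coordinates are gene bodies of GENCODE M21 on mm10, counted from 1, and all 57 genes matched. Exons of tested genes, among them Adam17, Adam15, Adam19, Adam8 and Adamts7, overlap a gene on the opposite strand; not every overlap is reported here. The longest coding sequence per gene was searched for the zinc site. Genes named are all family members, and of each regulator or substrate list those under an unadjusted 0.05. Timp1, Timp3, Furin, Rhbdf1, Frmd8, Tnfrsf1a, Tnf, Comp, Acan, Col1a1, Col1a2, Col3a1 and Col5a1 were added as examples after their values were seen. So were the cell type markers named singly, Lyz2 and Thy1 among them. The genes and lists were chosen with earlier results of these data known.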

Additional observations from a re-analysis of the deposited data

How the results depend on the processing

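No ADAM, ADAMTS or ADAMTSL gene passed in any of the 15 alternatives. The count over all genes was 3, and it was 21 without a low-count filter, 18 in DESeq2, 7 with the replicate block and 1 to 7 with each library left out in turn (1 when DMSO replicate 3 or compound 33 replicate 1 was dropped, 7 when DMSO replicate 1 was); the cause was not tested. In the list of ADAM regulators DESeq2 passed 1 gene, Timp2. Adam12 and Adamts12 stayed under an unadjusted 0.05 in all 15 alternatives, Adamts2 in 12, Adam33 in 4 and Adamts4 in 4. With single libraries left out the log2 fold change ran from -0.84 to -0.53 for Adam12, from -0.96 to -0.70 for Adamts12 and from -1.06 to -0.42 for Adamts2. Of the 23 tested genes 13 kept their sign in every alternative that tested them. The other 10 changed sign only when a library was left out, with ranges of -0.0093 to 0.49 for Adam15, -1.08 to 0.034 for Adamtsl4, -0.17 to 0.44 for Adamtsl1, -0.19 to 0.47 for Adam22, -0.56 to 0.063 for Adam8, -0.077 to 0.14 for Adam10, -0.17 to 0.85 for Adamts7, -0.046 to 0.43 for Adam17, -0.25 to 0.087 for Adamts1 and -0.089 to 0.73 for Adamts10. The difference in the ratio of Adamts5 to Adamts1 reads was 0.75, and 0.651 to 0.837 with each library left out. Replicate numbers are not stated to pair cultures. Deviations of same-numbered libraries correlated at -0.03, 0.21 and 0.08 across genes, and not every library correlated best with its own number, so the block is a description. Genes under 20 CPM in both groups, 9 of the 23, rest on few reads, and their intervals are wide.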
